A study of Mus musculus with 28 samples.

Results

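A set of 276 regions was called for the vitamin D receptor (VDR) both with its hormone and with vehicle, and had no accompanying site of the retinoid X receptor (RXR). They were chosen by VDR and RXR peak calls alone, and they make up 22.7% of the 1218 VDR sites called in both replicates with hormone. A site was a peak of replicate 1 with at least 1 bp in common with a peak of replicate 2, and the pair was joined. A member overlapped a VDR peak of at least 1 vehicle replicate and no RXR site of the hormone-treated cells. The remaining sites fall into 3 classes that serve for comparison: 49 called in vehicle and holding RXR, 239 called only with hormone and lacking RXR, and 654 called only with hormone and holding RXR.

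The cells were IDG-SW3, a mouse bone line that is kept growing at 33 °C by interferon gamma and becomes osteocyte-like at 37 °C in mineralizing medium once interferon gamma is withdrawn. The line carries a green fluorescent reporter driven by the Dmp1 promoter. Factor libraries came from day 35 cells given 100 nM of the active hormone 1,25(OH)2D3 (here 1,25D3) or vehicle for 3 h, with 2 biological replicates for each factor and treatment, and 9 histone marks were profiled without hormone at day 3 and day 35 with 1 library each. VDR was precipitated with the antibody C-20 and RXR with ΔN-197. The factor lists held 1618 and 1333 VDR peaks with 1,25D3, against 291 and 342 with vehicle, and 10333 and 7635 RXR peaks with 1,25D3, against 6875 and 4093 with vehicle. Replicate 2 of each factor carries an index tag in its file names that replicate 1 lacks. At day 35 the promoters of all 5 osteoblast markers checked and of 4 of 6 osteocyte markers lay on H3K27Ac, those of Sost and Fgf23 did not, and 4 and 2 lay on H3K4me3. Among markers of other cells, 2 of 3 haematopoietic promoters (Sfpi1 and Cd68) lay on H3K27Ac and 0 on H3K4me3. The adipocyte marker Pparg lay on both marks, 1 of 2 checked, and neither mark covered any of the 2 endothelial, 2 muscle and 2 cartilage promoters.

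VDR is a nuclear receptor that binds 1,25D3. In the textbook scheme it pairs with RXR on a direct repeat of hexamers spaced by 3 bases, and it is known for acting from distal enhancers of genes such as Cyp24a1 and Tnfsf11. H3K4me3 marks active promoters, acetylation of H3 and H4 marks active promoters and enhancers, and H3K9me3 marks silent chromatin.

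The sequence content of these regions differed from that of the other VDR sites. CATAGAG headed the 7-letter words ranked by their excess over active promoters, CTAGAG was the shared core of several that followed, and in 30 members the words lay in a like arrangement. The windows below show that arrangement in 8 members, chosen among those with no annotated UTR or coding sequence and to cover genes of several functions. Each runs 5′ to 3′ on the strand of the words, mm9 coordinates, with the words in capitals.
Timm10, chr2:84667091-84667129, minus strand: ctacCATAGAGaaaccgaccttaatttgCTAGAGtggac
Mdm4, chr1:134921984-134922019, plus strand: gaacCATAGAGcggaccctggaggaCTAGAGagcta
Xrn1, chr9:95855142-95855175, minus strand: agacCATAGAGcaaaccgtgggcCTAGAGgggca
Hdlbp, chr1:95375016-95375053, plus strand: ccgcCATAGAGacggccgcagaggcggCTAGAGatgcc
Snrpe, chr1:135506912-135506950, minus strand: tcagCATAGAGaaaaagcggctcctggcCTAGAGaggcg
Pars2, chr4:106323494-106323532, plus strand: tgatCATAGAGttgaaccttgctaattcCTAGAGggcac
Otud3, chr4:138469950-138469984, plus strand: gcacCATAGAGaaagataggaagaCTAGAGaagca
Rps9, chr7:3655513-3655547, minus strand: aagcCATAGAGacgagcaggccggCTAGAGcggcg
CATAGAG comes first in each. Timm10 is a carrier of mitochondrial protein import, Mdm4 a p53 inhibitor, Xrn1 an exoribonuclease, Hdlbp an RNA-binding protein, Snrpe a core protein of the splicing particles, Pars2 the mitochondrial prolyl-tRNA synthetase, Otud3 a deubiquitinase and Rps9 a ribosomal protein.

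The members made up most of the 100 strongest VDR peaks in each list. They took 61 and 60 of the 100 highest-scoring VDR peaks with 1,25D3 in replicates 1 and 2, and 84 and 85 of the top 100 with vehicle, while they made up 17.1% and 20.7% of all VDR peaks with 1,25D3 and 84.5% and 80.4% of those with vehicle. Their part of the top 100 with vehicle was thus close to their part of the whole vehicle list. The score is the authors' peak score, with a scaling that is not stated, so scores are read within a list only. Median scores of the members were 23.1 and 22.0 with 1,25D3, where all peaks had medians of 9.90 and 11.9, and 18.1 and 24.7 with vehicle, where all peaks had 17.9 and 22.6. These values took part in the choice of the members and are a description.

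The strongest member covered the promoter of Prpsap1, which encodes a partner of the enzyme that makes phosphoribosyl pyrophosphate (chr11:116351636-116351952). Its scores were 277.7 and 314.0 with 1,25D3 and 206.1 and 379.7 with vehicle, ranks 4 and 1 with hormone and 3 and 1 without. Polq, which encodes DNA polymerase theta (chr16:37011638-37011954), scored 279.1 and 301.5 with 1,25D3 and 223.5 and 308.9 with vehicle. Arhgef1 (chr7:25689171-25689487) scored 243.6 and 228.9 with 1,25D3 and 179.3 and 243.9 with vehicle. All 3 therefore stood among the 5 highest peaks of all 4 VDR lists.

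Below them came Ift46, an intraflagellar transport gene, with 237.5 and 213.2 with 1,25D3 and 160.5 and 218.3 with vehicle. Ercc1, a nucleotide excision repair gene, scored 200.9 and 209.9 with 1,25D3 and 143.9 and 203.7 with vehicle. Cct7, a subunit of the cytosolic chaperonin, scored 204.4 and 186.5 with 1,25D3 and 152.3 and 187.3 with vehicle. Other genes of the 25 best-ranked members were Trim41 (a ubiquitin ligase), Tbpl1 (a TATA-binding protein homologue), Timm10, Cox7a2 (cytochrome c oxidase), Pfdn5 (prefoldin), Sphk2 (sphingosine kinase) with Rpl18 (ribosome), Mrpl12 (mitochondrial ribosome), Zfp142, Znrd1 (RNA polymerase I), Nek4 (a kinase), Polr3c (RNA polymerase III) and Mdm4. All 25 lay at most 1 kb from a transcription start site (TSS), and 25 overlapped H3K27Ac at day 35.

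The weakest 5 members by mean rank were Thoc5 (mRNA export), Rplp0 (ribosome), Mrto4 (ribosome assembly), Hddc3 and Gadd45g (a stress-response gene). Thoc5 scored 5.6 and 7.4 with 1,25D3 and 6.0 and 10.1 with vehicle, and Rplp0 scored 7.0 and 4.7 with 1,25D3 and 9.2 in vehicle replicate 2 alone. The order of the members was much alike in all libraries: Spearman's rank correlation of the scores was 0.96 between the hormone replicates over 276 sites, 0.97 between 1,25D3 and vehicle in replicate 1 over 246 sites, and 0.95 in replicate 2 over 275 sites. These points share their DNA, antibody and peak caller. The widest departures were Ythdf2, an m6A reader gene, with 60.9 in hormone replicate 1 and 15.7 in replicate 2, and Adrm1, a proteasome gene, with 50.5 and 16.3; both were picked out after their values were seen.

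**Figure D1:**
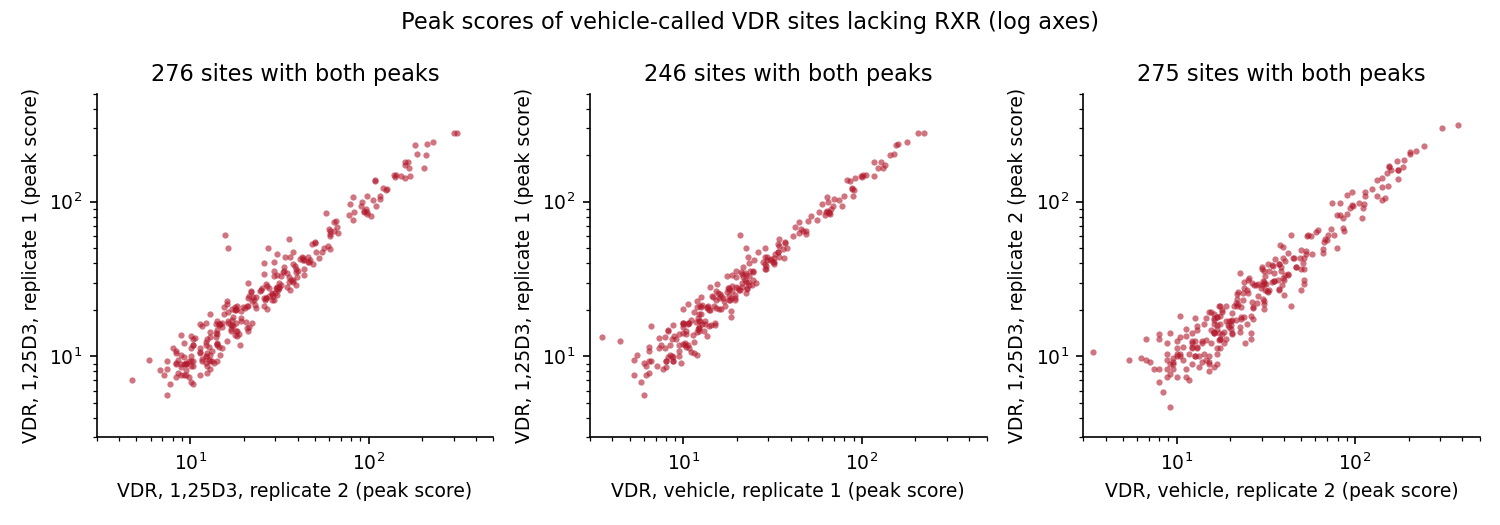
Peak scores of the members in pairs of VDR libraries on log axes, 1 point per site. The points lie along a single band in all 3 panels, from scores below 10 up to 277.7 and 314.0 for Prpsap1 with 1,25D3.

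In position along the genome, the boundary of the set was sharp on the vehicle side and less so on the RXR side. By peak score the vehicle side was not sharp, since the lowest-scoring peak of each vehicle list lay on a member. A total of 245 members had a peak in both vehicle replicates, 1 in replicate 1 alone and 30 in replicate 2 alone. The smallest overlap of a member with a vehicle peak was 206 bp (Ern1), and the nearest excluded site without RXR lay 5164 bp from any vehicle peak. Of the members, 17 overlapped an RXR peak of hormone replicate 1 and 11 one of hormone replicate 2, in no case both, and 13 and 7 overlapped one of vehicle replicates 1 and 2. The remaining 241 (87.3%) overlapped no peak of any of the 4 RXR libraries, and the median gap to an RXR site with hormone was 107 kb. Cct7 alone overlapped an RXR site called in both vehicle replicates. The members with an RXR peak of any library included 10 of the 25 best-ranked, 8 with a peak of 1 library and 2 with peaks of several, among them Polq, Ift46, Trim41, Sphk2, Zfp142, Znrd1 and Mdm4. Tbpl1 lay 35 bp, Fam116b 248 bp and Gga1 286 bp from an RXR site, just inside the rule. Vehicle-called sites at Shoc2, Hnrnpul1 and Tab1 overlapped one by 2, 11 and 144 bp and fell just outside it.

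The members were promoter sites. Of the 276, 253 (91.7%, 95% Wilson interval 87.8 to 94.4, which here and below covers counting error over sites only) had their centre within 1 kb of the TSS of a protein-coding transcript. The share was 59.2% (45.2 to 71.8) of the vehicle-called sites with RXR, 16.7% (12.5 to 22.0) of the 1,25D3-only sites without RXR and 6.73% (5.05 to 8.91) of those with RXR. The interval of the members overlapped none of the others. Position was not used to choose them. Among the 253, the median position of the centre was 28.0 bp upstream of the TSS, with quartiles of 75 bp upstream and 6.00 bp downstream. Median GC content over 200 bp was 62.5% in the members, 60% in vehicle-called sites with RXR, 47.5% and 48.0% in the 1,25D3-only classes, and 66.5% at 6043 promoters on H3K4me3 at day 35, the active promoters of the comparisons below. The ratio of observed to expected CpG was 0.839 in the members, 0.211 and 0.220 in the 1,25D3-only classes, and 0.894 at the active promoters.

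**Figure D2:**
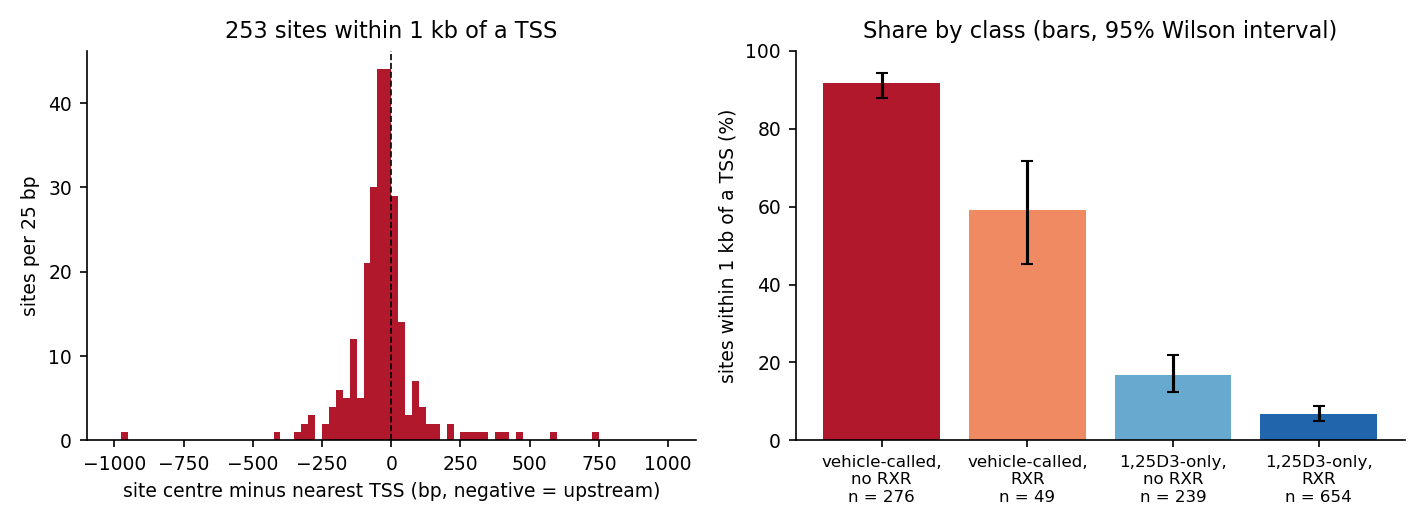
Left, distance from the site centre to the nearest TSS for the 253 members within 1 kb, in bins of 25 bp; right, the share of each class within 1 kb of a TSS, with 95% Wilson intervals. The centres pile up just upstream of the TSS, and the shares run from 91.7% in the members down to 6.73% in the 1,25D3-only sites with RXR.

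The members' chromatin was largely that of active promoters at both ages, and none of the marks was used to choose them. At day 35, 99.6% (98 to 99.9) overlapped H3K9Ac, 99.3% (97.4 to 99.8) H3K27Ac, 99.3% (97.4 to 99.8) H4K5Ac and 98.6% (96.3 to 99.4) H3K4me2. H3K4me3 covered 84.4% (79.7 to 88.2) of members at day 35, 61.2% (47.2 to 73.6) of vehicle-called sites with RXR, 9.62% (6.50 to 14.0) of 1,25D3-only sites without RXR and 3.98% (2.73 to 5.76) of those with RXR. H3K4me1, the mark that the 1,25D3-only sites with RXR carried at 97.2% (95.7 to 98.3), covered 90.9% (87.0 to 93.8) of the members. H3K36me3, which lies over transcribed genes, covered 5.43% of members and the silent mark H3K9me3 covered 1.09%, against 10.5% and 1.23% of all VDR sites. Active promoters had less H3K36me3, at 1.65% (1.36 to 2.01), than the members (3.32 to 8.77) or the members near a TSS, at 4.35% (2.44 to 7.62). H3K9me3 covered 0.877% of active promoters. All of H3K4me3, H3K27Ac, H3K9Ac and H4K5Ac met on 232 members (84.1%), close to the share on H3K4me3 alone.

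Day 3 gave nearly the same picture with more H3K4me3 and H3K4me1. At day 35 H3K4me3 covered 233 members and at day 3 it covered 258 (93.5%), with 2 on it at day 35 alone and 27 at day 3 alone. The whole H3K4me3 list was also shorter at day 35, with 9360 regions against 11283 at day 3, and with 1 library per day the difference has no replicate check. Polq, Rpl7l1 (a homologue of a ribosomal protein) and Kdm1a (a histone demethylase) were among the members on H3K4me3 at day 3 and not at day 35, and all 3 lay on H3K27Ac at both days. Of the 43 members off H3K4me3 at day 35, 42 overlapped H3K27Ac. Srrm3, a splicing regulator gene, was the single member on none of the 9 marks at day 35, and it held both words in that arrangement. H3K4me3 regions at members near a TSS were somewhat narrower than at all active promoters, with a median width of 1068 bp (quartiles 809 and 1464) against 1235 bp (901 and 1735) at day 35.

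**Figure D3:**
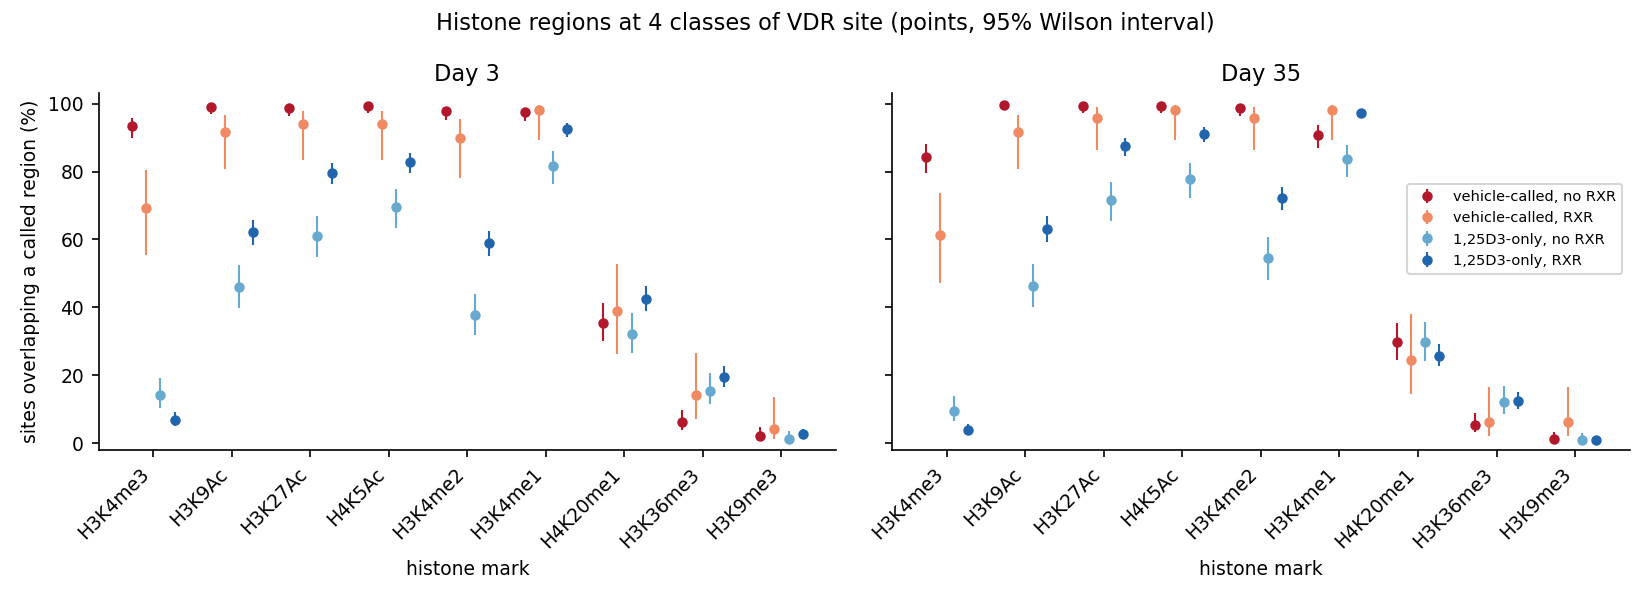
Share of each class of VDR site that overlaps a called region of each histone mark at day 3 and day 35, with 95% Wilson intervals. The members lie above 84% for the 6 marks on the left of each panel and below 36% for H4K20me1, H3K36me3 and H3K9me3, and the classes separate most at H3K4me3.

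The direct repeat of VDR and RXR was about as rare in the members as at active promoters in windows of 100 and 200 bp. The search took 200 bp around each centre, on both strands, for a pair of RGKTSA hexamers (R is A or G, K is G or T, S is C or G) spaced by 3 bp with at most 1 mismatch in all. It found the repeat in 9 members (3.26%, 1.72 to 6.08), in 40.8% (28.2 to 54.8) of vehicle-called sites with RXR, in 61.5% (55.2 to 67.4) of 1,25D3-only sites without RXR and in 47.9% (44.1 to 51.7) of those with RXR. Active promoters held it in 138 of 6043 windows (2.28%), and points 2 kb to each side of the members in 3.80% (2.50 to 5.75), so the members' share was near both backgrounds. In windows of 400 bp it was in 9.78% (6.81 to 13.9) of members, against 5.81% (5.25 to 6.43) of active promoters and 7.61% (5.68 to 10.1) of the points 2 kb away, and in windows of 100 bp in 1.45% (0.565 to 3.67) against 1.08% (0.845 to 1.37) and 1.99% (1.12 to 3.53). The 1,25D3-only sites with RXR held it in 54.6% and 41.0% of windows of those lengths. At 400 bp the members' interval lay above that of active promoters and overlapped that of the points 2 kb away. No member held the repeat without a mismatch. The pattern TGANTCA, bound by AP-1 factors in general, was in 2.54% of members, 2.13% of active promoters and 31.3% of 1,25D3-only sites with RXR. AGGTCA, a nuclear receptor hexamer, was in 4.71% of members, 5.61% of active promoters and 36.2% of those sites.

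The repeats that were found are shown for the pair of highest-ranked members with one, each hexamer in capitals.
Clasp1, chr1:120285750-120285776, minus strand: aaaaaaAGGTGAccaAGGAGAatttaa
Cdipt, chr7:134119646-134119672, minus strand: gagattGGGTGActtAGTACAgcccac
Clasp1, a microtubule plus-end gene, scored 80.9 and 103.2 with 1,25D3 and 52.0 and 142.1 with vehicle. Cdipt, the phosphatidylinositol synthase gene, scored 42.5 and 41.5 with 1,25D3 and 30.9 and 40.7 with vehicle. The other members with a repeat were Zfp187, Ddx18 (an RNA helicase), Lrrc47, Bysl (ribosome assembly), Tnpo2 (nuclear import), and regions nearest to Metap2 (a methionine aminopeptidase) and Gm13011. Each of the 9 repeats carried 1 mismatch, and 6 of the 9 members also held CATAGAG or CTAGAG.

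Of 9 words of general promoter factors searched on both strands, CCGGAAG alone was more frequent in the members than at active promoters. CCGGAAG, the core that ETS factors bind, was in 36.2% (30.8 to 42.1) of members and 22.5% (21.5 to 23.6) of active promoters. GGGCGG, the GC box, was less frequent in the members, at 43.5% (37.8 to 49.4) against 62.4% (61.2 to 63.6). CCAATCA was also less frequent, in 3.26% (1.72 to 6.08) against 7.40%, and so was CTACANNTC, in 0.725% (0.199 to 2.60) against 5.44%. For the other words the members' interval held the promoter share: CTCGCGAG was in 0.725% (0.199 to 2.60) against 2.05%, the cAMP-response word TGACGTCA in 2.90% (1.48 to 5.61) against 3.43%, and the E-box CACGTG in 6.88% (4.45 to 10.5) against 8.22%. GCATGCGC was in 4.35% (2.50 to 7.44) against 5.48%, and AANATGGCG in 6.16% (3.88 to 9.64) against 7.86%. AACCACA, bound by RUNX factors, was in 3.62% (1.98 to 6.54) of members, 1.59% (1.30 to 1.94) of active promoters and 13.5% (11.1 to 16.3) of 1,25D3-only sites with RXR.

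CATAGAG was in 81 members (29.3%, 24.3 to 35.0) and in 1.74% (1.44 to 2.10) of active promoters, and CTAGAG in 137 members (49.6%, 43.8 to 55.5) against 8.87% (8.18 to 9.61), read on both strands in 200 bp. The letters of CTAGAG do not lie within CATAGAG, so the words are counted apart. Either word was in 168 members (60.9%, 55.0 to 66.4), where active promoters gave 10.0%, and both words were in 50 members (18.1%) against 0.563%. The active promoters include promoters with a member. At the 5725 with no VDR peak within 1 kb, CATAGAG was in 0.908%, CTAGAG in 7.69%, either word in 8.51% and both in 0.0873%. The words were found by counting 7-, 8- and 10-letter words in the members, so these shares are a description. Counting on the odd-numbered chromosomes alone, CATAGAG led the 7-letter words and CTAGAG the 6-letter words. On the other chromosomes either word was in 65 of 113 members (57.5%, 48.3 to 66.2) and 10.5% of active promoters. Both words were there in 20.4% (14.0 to 28.7) against 0.432%. Since the words had been picked with all members in view, these shares are not an independent check.

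The words were also rarer in the other VDR sites. Vehicle-called sites with RXR stood between, with either word more often than the 10.0% (9.31 to 10.8) of active promoters. Either word was in 34.7% (22.9 to 48.7) of vehicle-called sites with RXR, 9.21% (6.16 to 13.5) of 1,25D3-only sites without RXR and 11.5% (9.25 to 14.1) of those with RXR, and in 11.4% (9.02 to 14.3) of points 2 kb from the members. The share followed the strength of the peak. In 4 groups of 69 members, taken from the highest to the lowest mean VDR rank, it was 81.2% (70.4 to 88.6), 60.9% (49.1 to 71.5), 55.1% (43.4 to 66.2) and 46.4% (35.1 to 58.0). Members with either word had median scores of 27 and 28.8 with 1,25D3 and 21.2 and 30.6 with vehicle, and the 108 members with neither had 16.5 and 16.9 with 1,25D3 and 14.1 and 20.3 with vehicle. Those 108 were promoter sites to the same extent, with 93.5% within 1 kb of a TSS and 87.0% on H3K4me3 at day 35, against 90.5% and 82.7% of the members with a word. CCGGAAG was in 36.9% of members with a word and 35.2% of members without.

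A weight matrix, a table of letter shares at 16 positions, was fitted by expectation maximization to the members on odd-numbered chromosomes and centred on CTAGAG. Its share of A was 93.2% at position 8 and 97.4% at position 10. The share of G was 90.2% at position 9 and 85.6% at position 13, and that of C was 76.9% at position 15. These shares are weighted by the fit and are not counts over matched windows. Matches from members of high rank are shown, 30 bases each, with the matched 16 bases in capitals.
Prpsap1, chr11:116351688-116351717, plus strand: cgagtcgAGCAGCTAGAGCGTCCgcccccg
Arhgef1, chr7:25689350-25689379, plus strand: gtaggagGCGGGCTAGAGCGGCCggaggga
Ift46, chr9:44580981-44581010, minus strand: cgcggcgCTGGGATAGAGCGGCCccgggca
Ercc1, chr7:19930426-19930455, plus strand: acgagcgAAGGGCCAGAGCGGCCggaagtg
Cox7a2, chr9:79607645-79607674, minus strand: gaggtccGGAGGCTAGACGGGCCgctgcga
Mrpl12, chr11:120345908-120345937, plus strand: agccaacCCGGGCTAGAGCGGCCcggacag
Ift46, Ercc1 and Cox7a2 are shown because their matches do not hold the exact word CTAGAG. A threshold of 11.20 bits was set so that 5% of active promoters on the odd-numbered chromosomes passed. The matrix scored past it in 50 of 113 members on the chromosomes left out of the fit (44.2%, 35.4 to 53.4). On those chromosomes 4.10% (3.43 to 4.91) of active promoters passed, and 3.44% (1.93 to 6.05) of 1,25D3-only sites with RXR. Vehicle-called sites with RXR passed in 6 of 27 cases (22.2%, 10.6 to 40.8), an interval that overlaps that of the members. Over all chromosomes, matches in 154 members lay a median of 18.5 bp from the site centre, 87.7% of them within 50 bp. Of 141 matches near a TSS, 61 were on the strand of the gene and 80 on the opposite strand.

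Read the other way, active promoters with the best matches were often members. On the left-out chromosomes, 1.44% (0.934 to 2.21) of promoters in the lower 50% of matrix scores had a member, 8.43% (4.15 to 16.4) from the 95th to the 98th percentile, 21.4% (10.2 to 39.5) from the 98th to the 99th, and 13 of 28 (46.4%, 29.5 to 64.2) in the top 1%.

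**Figure D4:**
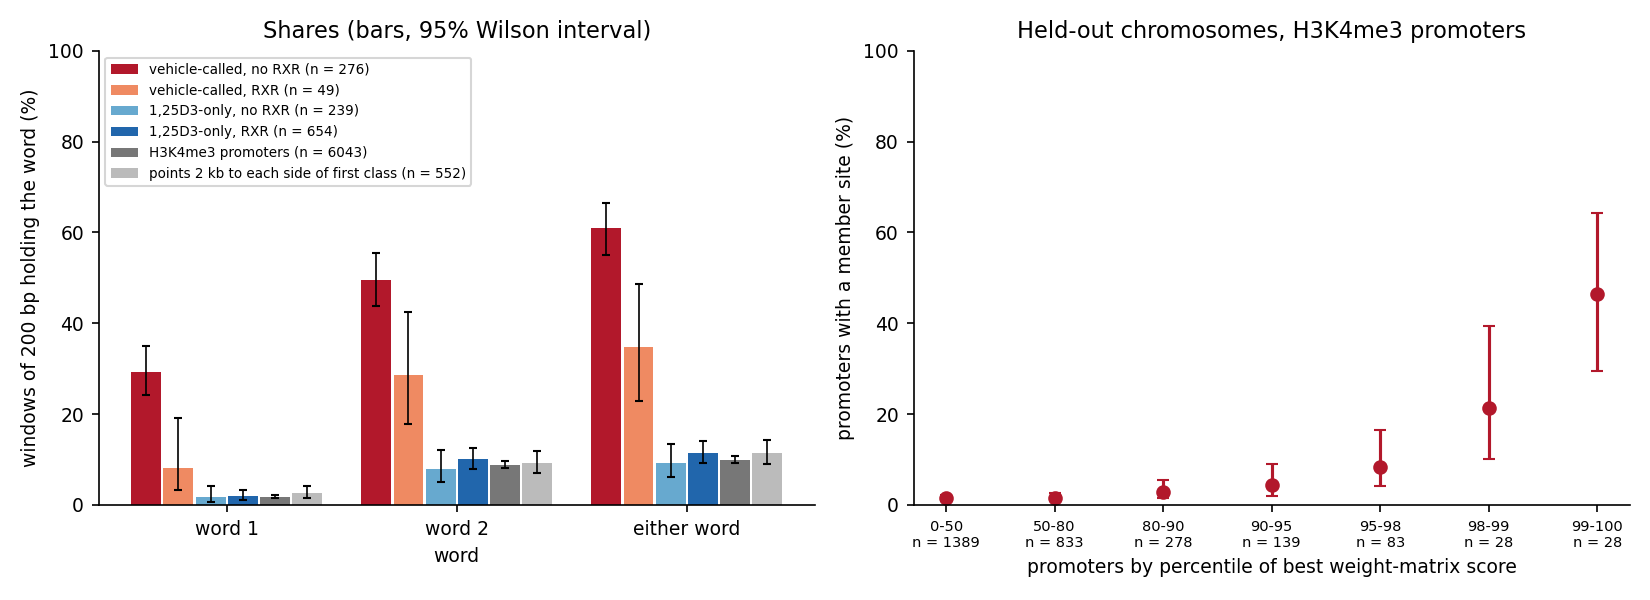
Left, share of 200 bp windows holding the 7-letter word (word 1), the 6-letter word (word 2) or either, by class of VDR site, at active promoters and at points 2 kb from the members, with 95% Wilson intervals; right, share of active promoters with a member by percentile of their best weight-matrix score on chromosomes left out of the fit. Either word is in 60.9% of the members and 10.0% of active promoters, and the share with a member reaches 46.4% in the top 1%.

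The words often lay in 1 order and on 1 strand. In windows of 300 bp the members held 58 pairs of CATAGAG and CTAGAG on the same strand and 16 on opposite strands. Of the same-strand pairs, 30 had CTAGAG starting 14 to 32 bp after CATAGAG, with a median of 23 bp, and 2 lay at such distances in the reverse order. Of the opposite-strand pairs, 0 had CTAGAG 14 to 32 bp after CATAGAG, but some lay as close in the reverse order, at -27, -21 and -18 bp. That range was set from these distances, so the count is a description. The 30 arranged pairs were in 30 members (10.9%), 8 in the 69 members of highest rank and 7 in the 69 of lowest rank, and 14 of them ran on the strand of the gene. With the range taken instead from the odd-numbered chromosomes, as the 20 bp span with the most same-strand pairs, it was 14 to 33 bp. On the other chromosomes 14 of 22 same-strand pairs fell in it with CATAGAG first, and 0 of 8 opposite-strand pairs did in that order.

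Pairs in that 14 to 33 bp range were counted over the genome on the chromosomes that did not set it. Inside H3K4me3 regions of day 35 there were 10, of which 9 lay in a VDR site with 1,25D3 and 8 in a member (80%, 49.0 to 94.3). Of 91 on H3K27Ac without H3K4me3, 5 were in a member (5.49%, 2.37 to 12.2), and of 961 on neither mark, 1 was (0.104%, 0.0184 to 0.587). The words themselves were picked with all members in view, though CATAGAG also led on the odd-numbered chromosomes alone. Over all chromosomes and at 14 to 32 bp, where the members set the range, the count inside H3K4me3 regions was 22 of 26, which is a description.

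**Figure D5:**
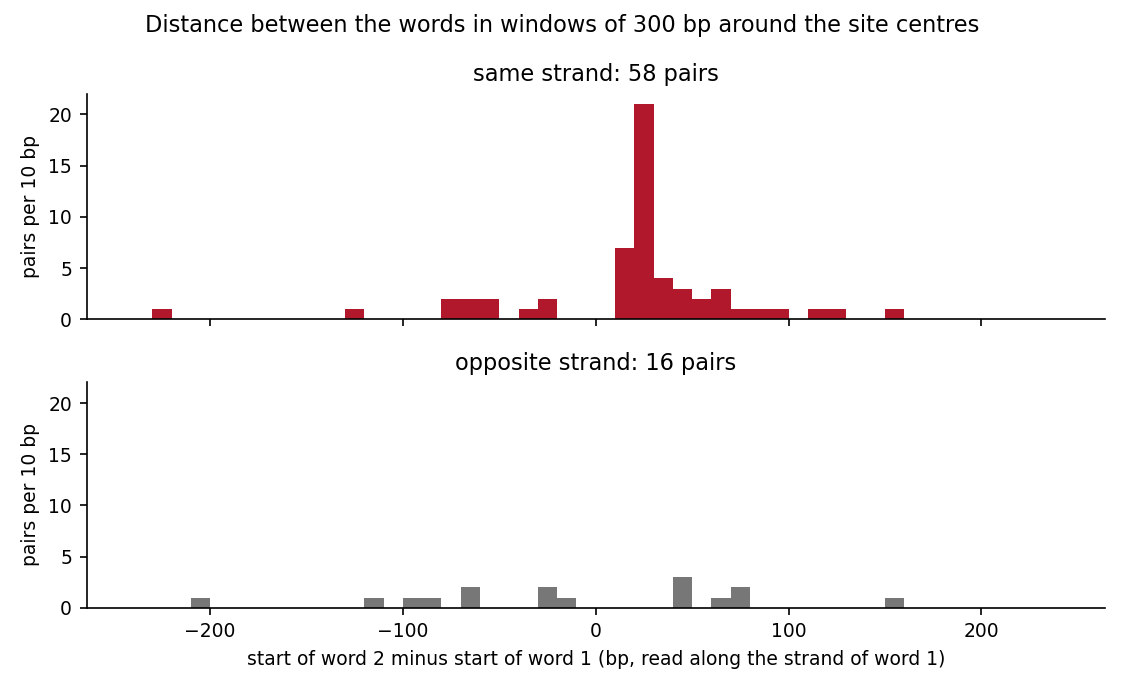
Distance from the start of word 1 to the start of word 2 in the members' windows of 300 bp, in bins of 10 bp, for 58 same-strand pairs (above) and 16 opposite-strand pairs (below). The same-strand pairs pile up between 14 and 32 bp, where there is no opposite-strand pair.

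The 253 promoter members lay within 1 kb of the TSSs of 296 of 22359 protein-coding genes (1.32%), and 213 of those genes were among the 6051 whose most upstream TSS lay in an H3K4me3 region at day 35 (3.52%). A total of 210 members were near 1 gene, 42 near a pair of genes and 1 near more, with shared promoters such as Sphk2 with Rpl18, Zfp142 with Bcs1l, Polr3c with Rnf115 and Cog8 with Nip7. An opposite-strand TSS lay within 1 kb upstream of 27.2% (21.7 to 33.6) of these 213 genes and of 22.1% (21.1 to 23.2) of the 6051, a share that the first interval holds. It did so for 21.6% (17.3 to 26.7) of all 296 genes with a member and 8.65% (8.29 to 9.03) of all 22359. The count of 6051 misses genes marked at a later TSS. In the gene lists below a gene was therefore called active where H3K4me3 of day 35 came within 1 kb of any of its protein-coding TSSs, which holds for 9360 genes, 283 of them with a member (3.02%). Shares of a list are to be read against 3.02%. The lists were drawn up by gene symbol, and ribosomal protein genes have near-identical copies.

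The cytosolic ribosome had the highest share of any list. Of its 89 active genes 16 had a member (18%), including Rpl18, Rps27l, Rpl10 and Rpl36. Rps27l scored 85.4 and 97.8 with 1,25D3 and 65.2 and 82.1 with vehicle, and Rpl10 scored 93.5 and 90.7 with 1,25D3 and 68.8 and 94.3 with vehicle. By the most upstream TSS alone the count was 8 of 52 (15.4%), again the highest. Among translation factors and tRNA synthetases 9 of 94 active genes had a member (9.57%), among them Eif1ad, Eif3g, Eif5b and Eif2s1. Eif1ad scored 87.5 and 94.3 with 1,25D3 and 64.1 and 97.6 with vehicle. The mitochondrial ribosome had 3 of 73 active genes (4.11%), Mrpl12, Mrps10 and Mrps2, and 1 of 61 (1.64%) by the most upstream TSS, so its share was above or below that of all genes depending on the TSSs counted.

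Zinc finger transcription factor genes had 21 of 253 active genes with a member (8.30%), and 18 of 170 (10.6%) by the most upstream TSS, where they stood above the translation factors with 7 of 74 (9.46%). Several were neighbours in the Zscan and Zkscan group, such as Zkscan3, Zkscan4, Zfp187, Zfp192 and Zscan12 on chromosome 13. Zfp142 scored 144.6 and 140.2 with 1,25D3 and 100.4 and 174.3 with vehicle, Zfp41 scored 86.0 and 94.9 with 1,25D3 and 63.4 and 96.0 with vehicle, and Zfp768 scored 64.6 and 61.1 with 1,25D3 and 46.9 and 44.0 with vehicle.

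The respiratory chain and mitochondrial import had 9 of 109 active genes (8.26%), led by Timm10 with 165.7 and 167.8 with 1,25D3 and 122.5 and 184.8 with vehicle. Cox7a2 scored 171.4 and 161.0 with 1,25D3 and 134.9 and 173.9 with vehicle, and Tomm22 (outer membrane import), Cox6b1 and Uqcrc2 also had members. Transcription machinery had 6 of 96 (6.25%), including Polr3c with 137.8 and 108.8 with 1,25D3 and 82.9 and 133.3 with vehicle. Ubiquitin and proteasome genes had 9 of 151 (5.96%), with Trim41, Ube2z, Psmb3 and Psmd6 the highest, chaperones 4 of 67 (5.97%), with Cct7 and Pfdn5, and splicing and RNA binding 8 of 150 (5.33%), with Snrpd1 and Snrpe.

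Other lists were near or under the share of all active genes, or rested on 3 genes or fewer. Chromatin modifiers had 3 of 50 active genes (6.00%), with Smarcd1 the highest, and cilium genes 1 of 22 (Ift46). The share of the chromatin modifiers was like that of the chaperones, which rested on 4 genes. Vesicle traffic had 5 of 152 (3.29%), DNA replication and repair 2 of 82 (2.44%) and the cell cycle 1 of 97 (1.03%). Polq, Ercc1 and Rad1 were the members among all 108 repair genes.

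No member lay at a promoter of the genes that vitamin D and bone lists name. The count was 0 of 23 vitamin D target genes, 0 of 19 osteoblast genes and 0 of 13 osteocyte genes, of which 7, 15 and 6 were active, so at 3.02% less than 1 gene would be reached in each. Of the 1479 chemosensory receptor genes, 2 of them active, 0 were reached.

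A group of 23 members lay over 1 kb from any protein-coding TSS: 17 intergenic, 3 in introns and 3 in UTRs. All 23 overlapped H3K27Ac, H3K9Ac and H4K5Ac at day 35, 9 overlapped H3K4me3 at day 35 and 19 at day 3, and 8 lay within 1 kb of a TSS of some annotated transcript of any kind. The 5 best-ranked were nearest to Tmem167b (7318 bp), Snhg11 (14066 bp), Gm11273 (5171 bp), Zfp445 (3868 bp) and Zfp498 (2886 bp). The site by Tmem167b scored 62.5 and 67.6 with 1,25D3 and 44.4 and 85.5 with vehicle. Either word was in 16 of the 23 (69.6%, 49.1 to 84.4), against 60.1% (53.9 to 65.9) of the members near a TSS. It was in 11 of the 15 that lay over 1 kb from a TSS of any annotated transcript, 12 of which overlapped H3K4me3 at day 3. Col16a1, a collagen gene, had its site in an intron 5105 bp from the TSS, off H3K4me3 at both days, with the arranged pair.
chr4:129738345-129738377, plus strand: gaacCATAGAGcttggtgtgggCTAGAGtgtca
It scored 9.3 and 9.8 with 1,25D3 and 8.0 and 9.6 with vehicle, near the low end of the members.

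The sources used here do not state sequencing depth. The intervals cover counting error over sites, and repeatability rests on 2 libraries per factor and treatment and 1 per mark and day. The input libraries were not analysed here.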

How the data were processed

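Chromatin immunoprecipitation with sequencing gave 26 lists of regions used here of 28 samples; the 2 inputs were not analysed here. Bowtie, HOMER and mm9 are named in the submitters' processing notes; the sources used here give no versions, parameters or filters. The authors deposited each list per library with a score of unstated scaling, which served to rank peaks within a list. Members and lists were chosen with earlier results of these data known.

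Consensus sites, classes and overlaps (1 bp) were computed in Python 3.11.15 with numpy 2.4.6, scipy 1.17.1 and pysam 0.24.0. Positions are 1-based, and 0 regions ran past a chromosome end of NCBIM37. TSSs came from GENCODE M1. Sequence was read from NCBIM37 in 200 bp windows around site centres or TSSs. Procedures were tested on simulated data. Shares carry 95% Wilson intervals over sites, which share libraries and are not replicates of a treatment.

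Genes were named by rank (25 best, 5 lowest), direct repeat, gene list (up to 4 each), RXR peaks and distance; others are named as examples chosen after their values were seen.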

Additional observations from a re-analysis of the deposited data

How the results depend on the processing

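Under 91 alternative values of 6 results, 79 stayed within the main 95% interval (for the number of sites, within 1.5 times) and 12 moved. Limiting each factor list to its higher-scoring 50% gave 167 members in place of 276, with 94.6% within 1 kb of a TSS, 88.6% on H3K4me3 at day 35 and 68.3% holding CATAGAG or CTAGAG. Counting the TSSs of all annotated transcripts gave 94.6% near a TSS. H3K4me3 covered 91.3% of members with 500 bp added to each side and 57.2% with the higher-scoring 50% of its list. The direct repeat was in 1.45% of windows of 100 bp and 9.78% of windows of 400 bp, and in 0% of 200 bp windows with 0 mismatches. With 1 mismatch allowed CTCGCGAG was in 13%, and CATAGAG or CTAGAG was in 53.6% of windows of 100 bp. The 2 words were added after the data were seen. Leaving out each factor replicate in turn gave 246 to 285 members, 91.5% to 91.9% near a TSS, 82.8% to 85.0% on H3K4me3, 0.702% to 0.813% with CTCGCGAG, 3.16% to 3.75% with the direct repeat and 59.2% to 63.0% with either word. No paired analysis was possible because the results are shares of sites and come from no test between samples.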
